A study of Mus musculus with 10 samples.

Results

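The alpha and beta crystallin genes were examined in the E13.5 mouse lens, with or without a Cre transgene aimed at Dicer, the enzyme that makes mature microRNAs from their hairpin precursors. The members are Cryaa and Cryab (alpha), Cryba1, Cryba2 and Cryba4 (acidic beta) and Crybb1, Crybb2 and Crybb3 (basic beta), taken by gene symbol from the platform annotation, with the probe set of highest mean where a gene has several. All 8 were measured, by 1 probe set each, among 19938 genes in all. DicerCN embryos were Le-Cre+/- ;DicerloxP/loxP and control embryos Le-Cre-/- ;DicerloxP/loxP, so both groups carried 2 loxP-flanked Dicer alleles and the controls, titled wild type in the labels, lacked Cre. In Le-Cre mice the P0 promoter of Pax6 drives Cre in the surface ectoderm that gives rise to lens and corneal epithelium, so Dicer was targeted in that ectoderm, and the controls do not show what the transgene alone does. Each group had 5 arrays, each from the pooled lens pair of 1 embryo.

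Array medians lay between 6.54 and 6.56 and correlations between arrays from 0.977 to 0.990. Defining lens genes were high in both groups: Mip, the water channel of fibre membranes, had means of 13.56 and 13.45 in control and DicerCN lenses and Foxe3, a factor of the lens epithelium, 11.73 and 11.68. Dicer1 itself ranged from 10.01 to 10.32 in controls and from 10.19 to 10.45 in DicerCN lenses (difference 0.13, limma adjusted p = 0.472). This is no check of the labels, since the exons that Cre removes are not named there and the probes may sit in the remaining ones.

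Crystallins are the bulk proteins of the lens and give it its refractive index. Alpha crystallins are small heat shock proteins: they assemble into large mixed oligomers and act as chaperones that hold partly unfolded proteins in solution. Beta crystallins belong with the gamma crystallins to a family built of paired Greek key domains, and they pair with one another as acidic and basic subunits. The genes are switched on strongly as lens cells elongate into fibres, under transcription factors that include Maf, Pax6, Sox1 and Prox1, while Cryab is also transcribed in the lens epithelium and in muscle and other tissues.

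The genes lie on 5 chromosomes in the RefSeq annotation of GRCm38.p6: Cryaa at chr17:31677931-31681730, Cryab at chr9:50745951-50756636, Cryba1 at chr11:77718614-77725293, Cryba2 at chr1:74889934-74898842, and the other members on chromosome 5. There Cryba4 (chr5:112246492-112263625) and Crybb1 (chr5:112254563-112269585) lie on opposite strands with spans that overlap, and Crybb2 (chr5:113058258-113070117) and Crybb3 (chr5:113075839-113082236) lie side by side on the same strand. RefSeq promoter windows were matched for 7 members, Cryab being the exception. The letters GCTGAC, the core of the half-site bound by Maf proteins, were searched on both strands of the 250 bases before each start. They occurred in 5 of these 7 genes and in 12.9% of all 32851 windows of the table. The 150 bases before the start are shown for the genes whose signal was lower in DicerCN lenses by the test given below, Cryba2, Cryba4 and Crybb2, and for Cryaa and Crybb1, whose change did not pass it. The start is the one of RefSeq's promoter table, which lies inside the gene span given above for Cryba2, Cryba4, Crybb1 and Crybb3 and at its edge for Cryaa, Cryba1 and Crybb2. The sequences are written 5′ to 3′ along the gene's strand with GCTGAC in capitals.
Cryba2 (chr1:74893144-74893293, minus strand): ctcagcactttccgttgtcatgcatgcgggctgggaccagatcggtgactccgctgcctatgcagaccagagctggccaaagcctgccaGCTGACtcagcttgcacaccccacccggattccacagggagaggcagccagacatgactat
Cryba4 (chr5:112252519-112252668, minus strand): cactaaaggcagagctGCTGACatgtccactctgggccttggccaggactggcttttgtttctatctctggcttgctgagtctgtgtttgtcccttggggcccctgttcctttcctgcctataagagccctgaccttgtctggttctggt
Crybb2 (chr5:113070118-113070267, minus strand): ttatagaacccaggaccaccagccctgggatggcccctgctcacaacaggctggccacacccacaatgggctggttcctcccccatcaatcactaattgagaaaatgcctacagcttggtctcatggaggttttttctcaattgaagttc
Cryaa (chr17:31677781-31677930, plus strand): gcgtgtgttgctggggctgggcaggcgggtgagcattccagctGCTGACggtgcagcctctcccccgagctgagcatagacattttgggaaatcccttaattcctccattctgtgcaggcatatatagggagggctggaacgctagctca
Crybb1 (chr5:112255670-112255819, plus strand): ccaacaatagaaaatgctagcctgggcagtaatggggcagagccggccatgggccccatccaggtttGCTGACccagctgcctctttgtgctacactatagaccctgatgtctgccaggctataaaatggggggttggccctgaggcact
Cryba2 has the letters 61 bases before its start and, on the other strand, 183 bases before it. Cryba4 has them 134 and 181 bases before its start. Cryaa, Crybb1 and Cryba1 have 1 match each, at 107, 83 and 56 bases, and Crybb2 and Crybb3 have none in this window. The letters were thus present both in genes that fell (Cryba2 and Cryba4) and in genes that did not pass the test (Cryaa, Crybb1 and Cryba1), and absent in one gene of each kind (Crybb2 and Crybb3).

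The comparison set lenses in which Cre was aimed at Dicer against lenses without Cre. Values are log2 signals, so a difference of 1 is a doubling, and differences are DicerCN minus control with the standard error (SE) of limma, a linear model fitted to all genes. A gene was taken to differ when its p, adjusted over all genes by the Benjamini-Hochberg method, was under 0.05. In DicerCN lenses Cryba2, Cryba4 and Crybb2 fell, by 0.76, 0.40 and 0.36, which are levels 1.70-fold, 1.32-fold and 1.29-fold lower. No member rose, also at an unadjusted p under 0.05 in limma, where 4 were lower and 0 higher. Of all genes, 3.97% were lower and 2.56% higher at an adjusted p under 0.05, 6.54% in all. The share of all genes at an unadjusted p was not counted, so unadjusted counts here and below have no such share beside them. Differences were below 0 in 7 of 8 members, with Cryab the exception, and the median over the 8 was −0.18, beside −0.0014 over all genes, of which 50.3% were negative. All DicerCN arrays lay below all control arrays in 4 members (Cryba1, Cryba2, Cryba4 and Crybb2), against 4.42% of all genes. Lens tissue is here measured in bulk, so fewer fibre cells and less RNA per fibre cell cannot be told apart.

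**Figure D1:**
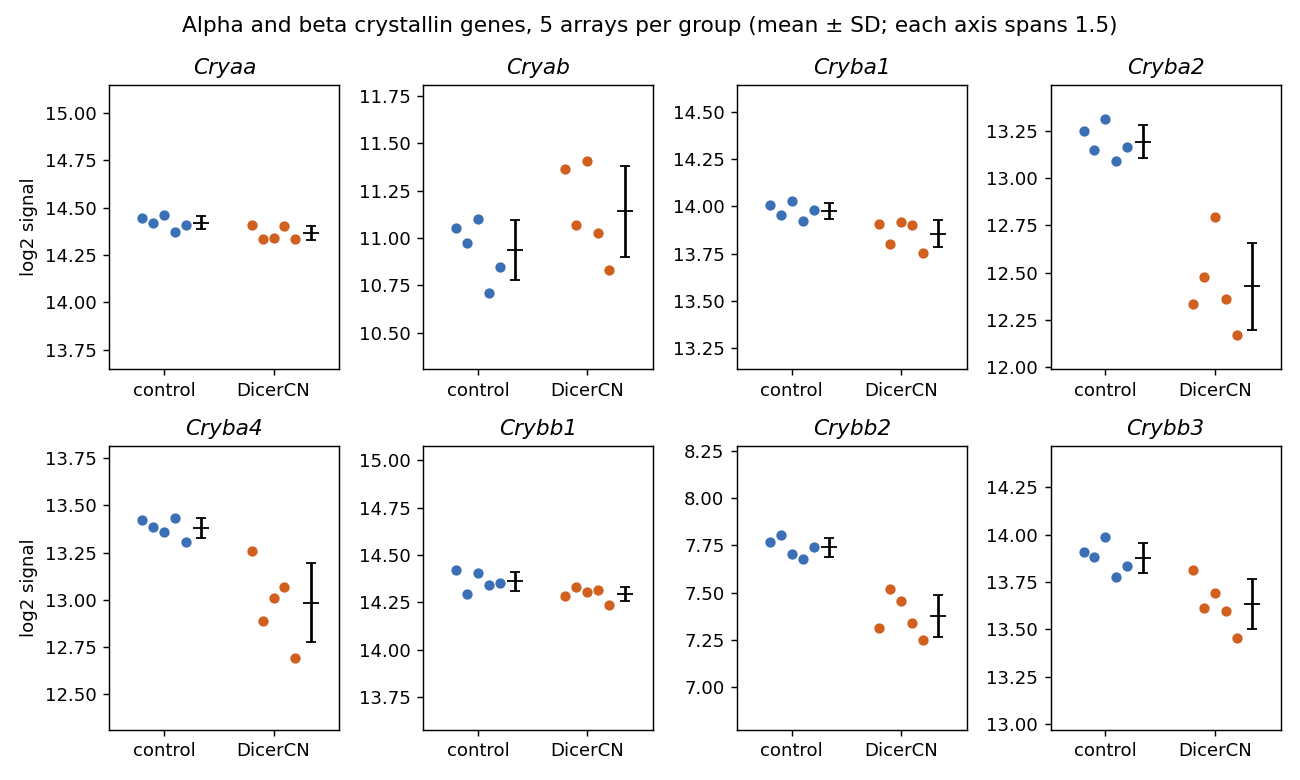
Log2 signal of the 8 alpha and beta crystallin genes in 5 control (blue) and 5 DicerCN (orange) arrays, 1 point per array, with the mean and SD in black; every vertical axis spans the same length. Cryba2 fell from 13.19 to 12.43 on average, whereas Cryaa and Crybb1 lay within narrow overlapping ranges.

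Cryaa encodes alpha A crystallin, the alpha subunit largely restricted to the lens. Its log2 signals were 14.44, 14.42, 14.46, 14.37 and 14.41 in control replicates 1 to 5 and 14.41, 14.34, 14.34, 14.40 and 14.33 in DicerCN replicates 1 to 5. The groups overlapped and the difference of −0.06 (SE 0.06, 95% confidence interval −0.19 to 0.08) did not pass the test (limma adjusted p = 0.711). The Cryaa signal stood near the upper end of the scale, which limits what this interval says of the transcript. The exact 2-sided permutation test over the arrays gave p = 0.0476 for this gene alone, unadjusted.

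Cryab encodes alpha B crystallin, the alpha subunit that is also induced by stress. Its signals were 11.05, 10.97, 11.10, 10.71 and 10.85 in the control and 11.36, 11.07, 11.41, 11.03 and 10.83 in the DicerCN arrays. DicerCN replicates 1 and 3 lay above every control, replicates 2, 4 and 5 within the control range. The difference of 0.20 (SE 0.12, interval −0.05 to 0.46) did not pass the test (limma adjusted p = 0.408). Control replicate 4, whose striated muscle markers averaged 9.79 against 6.22 to 6.60 in the other controls, had the lowest Cryab signal of all 10 arrays. DicerCN replicates 1 and 3 also had the highest macrophage marker levels, 7.45 and 7.62, and the highest vessel endothelium levels, 9.12 and 9.32. With the macrophage level as a covariate the Cryab difference was 0.018 (SE 0.16, limma adjusted p = 0.978), and the endothelium level was not used as a covariate. With the neural retina, pigment epithelium or striated muscle level as the covariate the Cryab difference was 0.31, 0.29 and 0.14. It passed in none of these fits (limma adjusted p = 0.172, 0.388 and 0.605). Hspb2, a small heat shock gene that lies within the span of Cryab in RefSeq, stood at 0.13 (SE 0.18, limma adjusted p = 0.797) and was below 0 without DicerCN replicate 3 (−0.017) and with the macrophage covariate (−0.11).

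Because alpha A and alpha B subunits share oligomers, the log2 ratio of Cryaa to Cryab was taken within each array, where scaling between arrays cancels. The size of such a ratio depends on the probes and only its shift between groups is read. It was 3.39, 3.45, 3.36, 3.66 and 3.56 in the controls and 3.05, 3.26, 2.93, 3.37 and 3.50 in the DicerCN lenses. The shift of −0.26 was 1 of 3 ratios tested and did not pass (exact 2-sided permutation p = 0.0714, adjusted p = 0.107 over the 3 ratios, the smallest possible p being 0.00794). It was −0.33 without DicerCN replicate 5, where it passed (exact permutation, adjusted p = 0.0357).

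Among the acidic beta crystallins, Cryba2 showed the largest change of the 8 members. Its signals were 13.25, 13.15, 13.31, 13.09 and 13.16 in the control and 12.33, 12.47, 12.79, 12.36 and 12.17 in the DicerCN arrays. The groups did not overlap, with a gap between 12.79 in DicerCN replicate 3 and 13.09 in control replicate 4. The fall of 0.76 (SE 0.11, interval −0.99 to −0.54) passed the test (limma adjusted p = 0.00115), was seen in 5 of 5 DicerCN arrays and kept its call without any 1 array (−0.86 to −0.70, limma adjusted p up to 0.00531). The spread among DicerCN arrays (SD 0.23) was wider than among controls (SD 0.09).

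Cryba4 encodes an acidic beta crystallin whose gene overlaps Crybb1. Its signals were 13.42, 13.38, 13.36, 13.43 and 13.30 in the control and 13.26, 12.89, 13.01, 13.07 and 12.70 in the DicerCN arrays. The groups did not overlap, although DicerCN replicate 1 came within 0.05 of the lowest control. The fall of 0.40 (SE 0.10) was near the threshold (limma adjusted p = 0.0290). The call was lost without any 1 of control replicates 1 to 5 (limma adjusted p = 0.0777, 0.0655, 0.0581, 0.0554 and 0.0501) and without DicerCN replicate 2 (0.0647), with differences between −0.41 and −0.37. It was also lost with control replicate 4 and DicerCN replicate 5 both left out (−0.31, limma adjusted p = 0.0829).

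Cryba1 encodes a pair of acidic beta crystallins that start at different codons of 1 transcript. Its signals were 14.01, 13.95, 14.03, 13.92 and 13.98 in the control and 13.91, 13.80, 13.92, 13.90 and 13.76 in the DicerCN arrays. The highest DicerCN value, 13.919, lay just below the lowest control value, 13.921. The difference of −0.12 (SE 0.07, interval −0.26 to 0.02) did not pass limma (adjusted p = 0.368), which draws the small SDs of this gene (0.04 and 0.07) toward those of other genes. The exact permutation test for this gene alone gave p = 0.00794, unadjusted and the smallest possible.

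Among the basic beta crystallins, Crybb1 changed least. Its signals were 14.42, 14.29, 14.40, 14.34 and 14.35 in the control and 14.28, 14.33, 14.31, 14.31 and 14.24 in the DicerCN arrays. Only DicerCN replicates 1 and 5 lay below every control. The difference was −0.07 (SE 0.06, interval −0.20 to 0.07, limma adjusted p = 0.648).

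Crybb2, whose protein accumulates mainly in the lens after birth, had signals of 7.77, 7.80, 7.71, 7.68 and 7.74 in the control and 7.31, 7.52, 7.45, 7.34 and 7.25 in the DicerCN arrays. The groups did not overlap. The fall of 0.36 (SE 0.07, interval −0.52 to −0.21) passed the test (limma adjusted p = 0.0104) and did so without any 1 array (−0.40 to −0.33, limma adjusted p up to 0.0348). With the macrophage or the pigment epithelium level as a covariate the call ended (−0.34 and −0.26, limma adjusted p = 0.190 and 0.137). The SEs in these fits were 0.11 and 0.09, against 0.07 without a covariate.

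Crybb3, which neighbours Crybb2, had signals of 13.91, 13.88, 13.99, 13.78 and 13.83 in the control and 13.82, 13.61, 13.69, 13.59 and 13.45 in the DicerCN arrays. DicerCN replicate 1 lay inside the control range and the other DicerCN arrays below it. The difference of −0.24 (SE 0.08, interval −0.42 to −0.07) did not pass over all genes (limma adjusted p = 0.101). Without DicerCN replicate 1 it was −0.29 and passed (limma adjusted p = 0.0494).

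**Figure D2:**
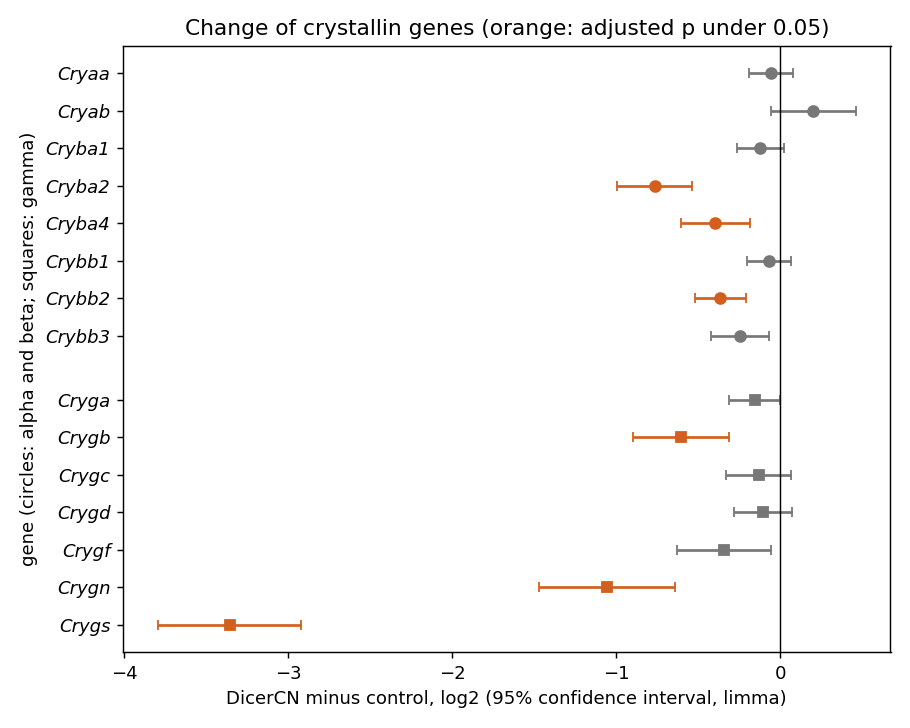
Difference between DicerCN and control lenses on the log2 scale for the 8 alpha and beta crystallins (circles) and 7 gamma crystallins (squares), with 95% confidence intervals from limma; orange marks an adjusted p under 0.05. Cryba2, Cryba4 and Crybb2 fell by 0.76, 0.40 and 0.36, Cryab was the one gene above 0, and Crygs stood far to the left.

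Control means were above 13 in 6 members, all but Cryab and Crybb2, on a scale where the highest control mean of any gene was 14.55 and the 99th percentile was 11.50. Cryaa and Crybb1, with control means of 14.42 and 14.36 and SDs of 0.04 and 0.05, stood next to that upper end and had the smallest differences. Whether signals so near the top of the scale follow a change of transcript in full was not tested. The members that fell had lower control means than these 2, 13.19 for Cryba2, 13.38 for Cryba4 and 7.74 for Crybb2. Cryba1, Crybb3 and Cryab, with control means of 13.98, 13.88 and 10.94, stood at −0.12, −0.24 and 0.20 and did not pass.

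**Figure D3:**
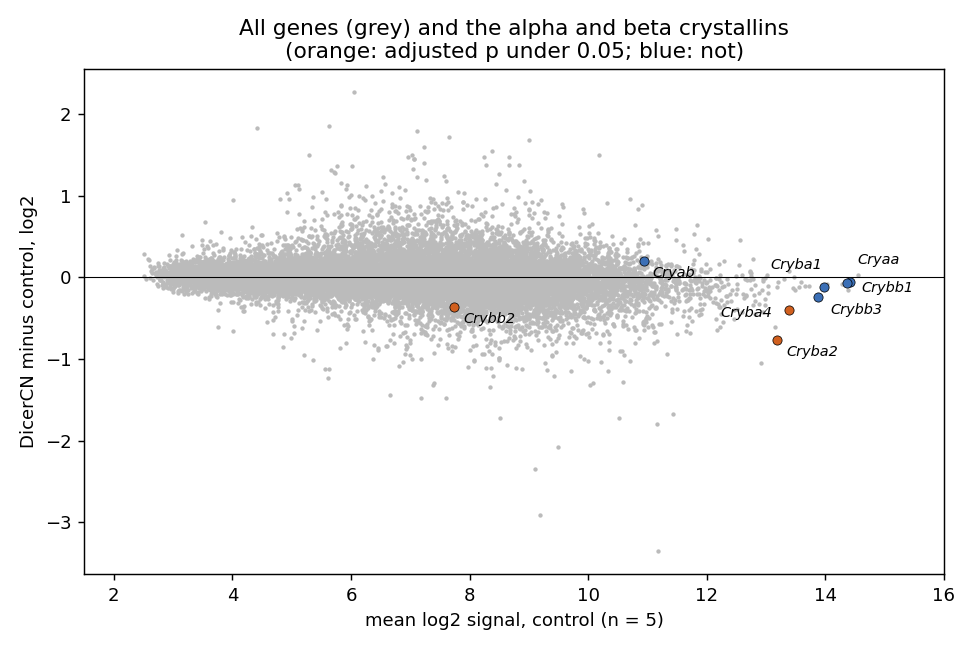
Mean control log2 signal (horizontal) against the DicerCN minus control difference (vertical) for 19938 genes in grey, with the 8 alpha and beta crystallins marked, orange where the adjusted p was under 0.05. On the horizontal axis 6 members lie above 13, and those nearest the upper end, Cryaa and Crybb1, lie nearest to 0.

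Differences between members were read from ratios within arrays. The log2 ratio of Cryba4 to Crybb1, neighbours on opposite strands, was −0.999, −0.91, −1.05, −0.91 and −1.05 in the controls and −1.03, −1.44, −1.30, −1.25 and −1.54 in the DicerCN lenses. DicerCN replicate 1 lay inside the control range and the other DicerCN arrays below it. The shift of −0.33 had an exact permutation p of 0.0238 and did not pass over the 3 ratios (adjusted p = 0.0714). Without DicerCN replicate 1 or 5 it was −0.40 and −0.27 and passed (exact permutation, adjusted p = 0.0238 and 0.0357). The ratio of Crybb2 to Crybb3 ran from −6.28 to −6.08 in the controls and from −6.50 to −6.09 in the DicerCN lenses, with a shift of −0.12 (exact permutation p = 0.151, adjusted p = 0.151). Set against Cryaa in the same array, as a description without a test, Cryba2 lay between −1.28 and −1.15 in the controls and between −2.16 and −1.55 in the DicerCN lenses. The same ratio shifted by −0.71 for Cryba2, −0.34 for Cryba4, −0.31 for Crybb2, −0.19 for Crybb3, −0.06 for Cryba1, −0.012 for Crybb1 and 0.26 for Cryab. Each shift is the member's own difference less that of Cryaa (−0.06), so it restates those differences.

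**Figure D4:**
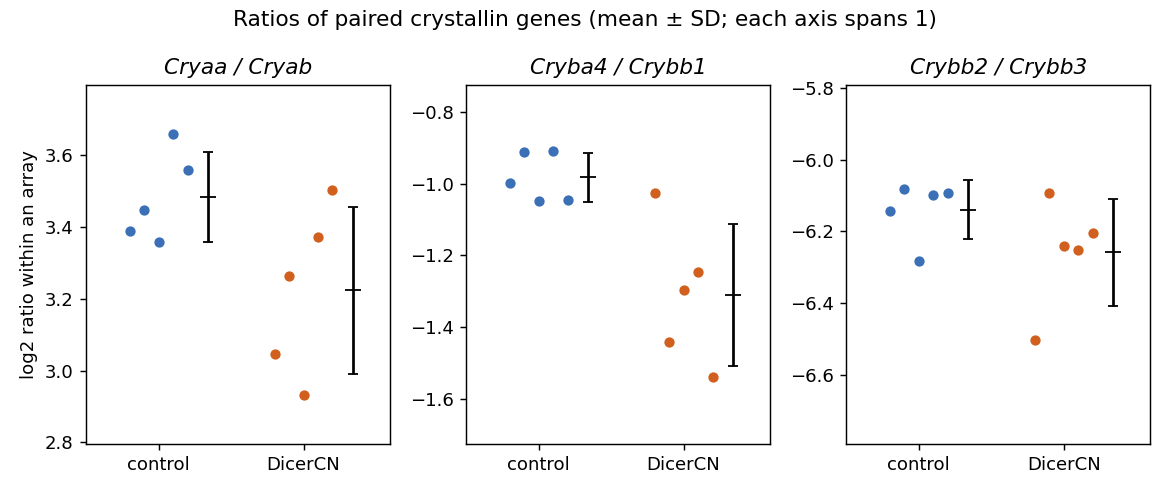
Log2 ratio of 2 crystallin genes within each array (vertical, each axis of the same length) for 5 control and 5 DicerCN lenses, with mean and SD in black. The groups overlap in all 3 ratios, and 4 of the 5 DicerCN arrays lie below every control in the ratio of Cryba4 to Crybb1.

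Values of the members left after subtraction of the group means were correlated over the 10 arrays of both groups pooled. Of the 28 pairs 27 had a positive Pearson r, with a median of 0.55. No r was taken within 1 group alone. DicerCN arrays had wider SDs than controls for Cryba2 (0.23 against 0.09) and Cryba4 (0.21 against 0.05), though not for Crybb1 (0.04 against 0.05). The closest pair was Cryab with Crybb3 (r = 0.93), and the one negative pair was Cryaa with Crybb2 (r = −0.17). All members on an array were read from the same lens pair and the same hybridisation, so the values describe the samples. In DicerCN replicate 5 all 8 members were the lowest of their group, and their mean lay 0.39 below the control mean, against 0.12 to 0.23 below it in the other DicerCN arrays. Control replicate 4 held the lowest control value for 6 members and the highest for Cryba4 (13.43).

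Both of these arrays stood apart in markers of other tissues. The mean level of 14 measured neural retina markers was 9.18 in DicerCN replicate 5, against 6.73 to 7.86 in the other DicerCN arrays and 6.66 to 7.51 in the controls. None of the 14 passed the test between the groups, while 2 were higher at an unadjusted p under 0.05 in limma. Their differences were above 0 in all 14, with a median of 0.61. With the retina level as a covariate Cryba2 fell by 0.69 and Crybb2 by 0.34 (limma adjusted p = 0.00477 and 0.0371), and Cryba4 no longer passed (−0.29, 0.0906). With control replicate 4 and DicerCN replicate 5 left out, Cryba2 fell by 0.73 and Crybb2 by 0.35 (limma adjusted p = 0.00347 and 0.0323).

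The 7 pigment epithelium markers averaged 5.98 to 6.39 in the controls and 7.24, 6.09, 6.39, 7.89 and 7.40 in DicerCN replicates 1 to 5. None of the 7 passed the test and 5 were higher at an unadjusted p under 0.05 in limma. All 7 had differences above 0, with a median of 0.96. With their level as a covariate 1 member passed, Cryba2, by −0.61 (limma adjusted p = 0.0250), and Cryba4 stood at −0.44 (0.101). The 12 macrophage markers averaged 6.23 to 6.92 in the controls and 6.74 to 7.62 in the DicerCN arrays. Of these 2, Csf1r and Cx3cr1, rose, beside 2.56% of all genes called higher. A total of 10 were higher at an unadjusted p under 0.05 in limma, for which no share of all genes was counted. All 12 had differences above 0, with a median of 0.54. The macrophage level thus partly followed the group, so a fit with both parts them poorly and has wider SEs. With the macrophage level as a covariate Cryba2 and Cryba4 passed (−0.89 and −0.59, limma adjusted p = 0.0185 and 0.0450). With the striated muscle level Cryba4 did not pass (−0.39, limma adjusted p = 0.0537). None of the 12 striated muscle markers passed, and differences were below 0 in 11 of them. Control replicate 4 held the highest level of these markers, 9.79. Vessel endothelium markers averaged 8.21 to 8.77 in the controls and 8.08 to 9.32 in the DicerCN arrays, and erythroid markers 8.77 to 9.93 and 9.45 to 10.04. None of the 9 endothelial and 5 erythroid markers passed, and 1 and 2 of them were higher at an unadjusted p under 0.05 in limma. All 9 and all 5 had differences above 0, with medians of 0.27 and 0.24. The 9 mesenchyme markers averaged 8.42 in control replicate 4, 7.14 to 7.47 in the other controls and 7.29 to 8.52 in the DicerCN arrays, highest in replicate 3. Of the mesenchyme markers Pdgfra fell by 0.58 (limma adjusted p = 0.0423), beside 3.97% of all genes called lower. Differences were above 0 in the other 8 mesenchyme markers. Log2 array signals have no zero, so none of these markers can be called absent, and their part in the crystallin values beyond these fits was not tested.

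**Figure D5:**
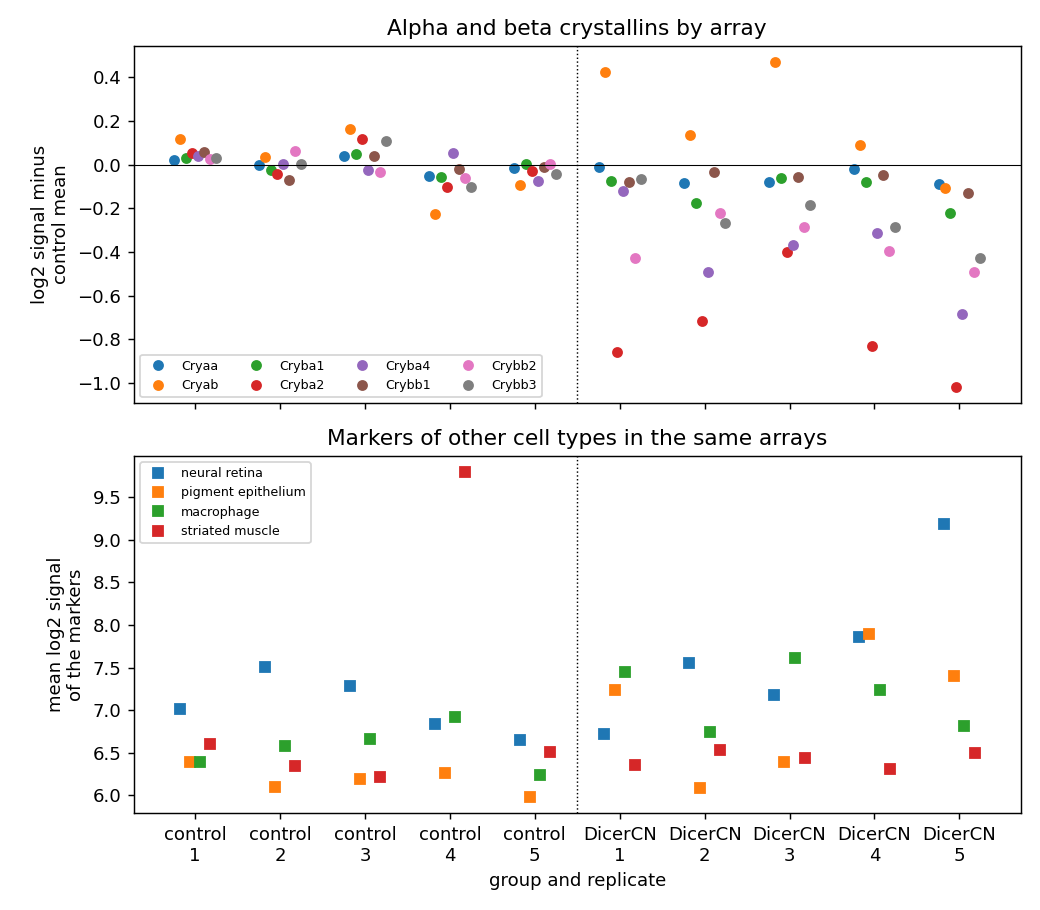
Upper panel, log2 signal minus the control mean for the 8 alpha and beta crystallins in each of the 10 arrays; lower panel, mean log2 signal of markers of 4 other cell types in the same arrays. All 8 crystallins are lowest of their group in DicerCN replicate 5, where the neural retina markers reach 9.18, and control replicate 4 stands out by its muscle markers at 9.79.

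Of 7 measured gamma crystallins, the other lens branch of the Greek key family, 3 fell and 0 rose, with a median of −0.34. At an unadjusted p under 0.05 in limma 5 were lower and 0 higher. Of all genes, 3.97% were called lower and 2.56% higher at an adjusted p under 0.05. Crygs fell by 3.36, Crygn by 1.05 and Crygb by 0.60. The Crygb call was lost without control replicate 1 (limma adjusted p = 0.0556). With the macrophage covariate Crygn stood at −1.18 and Crygb at −0.80, with SEs of 0.28 and 0.18 against 0.19 and 0.13 without it. Neither passed in that fit (limma adjusted p = 0.0770 and 0.0699). The pigment epithelium covariate also ended both calls (−0.965 and −0.44, limma adjusted p = 0.0695 and 0.201). Crygb did not pass with the retina covariate (−0.47, limma adjusted p = 0.0593). Crygf stood at −0.34 (SE 0.13, limma adjusted p = 0.173) and passed without DicerCN replicate 3 (−0.47, limma adjusted p = 0.0109). No test of the difference between the branches was made.

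Genes listed for a fold or a name related to the members', and not lens crystallins in the mouse, are given by list. Their calls are to be read beside the 6.54% of all genes that were called. Of 8 other genes with an Hspb symbol, listed by symbol and not by domain, 1 fell and 0 rose (3 lower and 0 higher at an unadjusted p under 0.05 in limma). Hspb11, which serves in intraflagellar transport, fell by 0.72 (SE 0.11, limma adjusted p = 0.00213), and the other 7 were not called. Hspb6, Hspb3 and Hspb8 stood at −0.33, −0.30 and 0.24 and did not pass. None of the 3 measured genes with crystallin-like domains, Crybg1, Crybg2 and Crybg3, passed (0.06, −0.15 and 0.36; 1 lower and 1 higher at an unadjusted p under 0.05 in limma). The sign of Crybg1 turned with the mean of its probe sets (−0.068). Of 5 enzymes and binding proteins, Grifin, a lens galectin, fell by 0.64 (SE 0.09, limma adjusted p = 0.00126). Cryzl1, Crym and Cryz stood at −0.27, 0.27 and 0.07. Cryzl1 passed without DicerCN replicate 1 (−0.34, limma adjusted p = 0.0483), and Cryz was below 0 with the pigment epithelium covariate (−0.069) and with control replicate 4 and DicerCN replicate 5 left out (−0.028).

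Of 23 measured transcription factors and cofactors that act on crystallin promoters, 1 rose and 0 fell, with a median of 0.0069. At an unadjusted p under 0.05 in limma 6 were higher and 2 lower. The 1 call at an adjusted p under 0.05 is to be read beside the 6.54% of all genes called by that rule. Meis2, a homeodomain protein that regulates Pax6, rose by 0.42 (SE 0.09, limma adjusted p = 0.0166). The call was lost with the macrophage (0.36, limma adjusted p = 0.269) and pigment epithelium (0.47, 0.0659) covariates, where the SEs were 0.14 and 0.12. Maf, the large Maf protein of fibre cells, stood at −0.21 (SE 0.12, limma adjusted p = 0.411) and at 0.028 with the pigment epithelium covariate. Pax6, the master regulator of the eye, stood at 0.17 (SE 0.09, limma adjusted p = 0.334). Sox1, needed for gamma crystallin transcription, stood at −0.36 (SE 0.12, limma adjusted p = 0.10). Prox1, a homeodomain protein of elongating fibres, stood at −0.16 (limma adjusted p = 0.542) and Hsf4, a heat shock factor of the lens, at −0.14 (0.628), and with the pigment epithelium covariate these were 0.054 and 0.088. Pitx3 (−0.40, limma adjusted p = 0.0611), Gata3 (0.50, 0.0618) and Sox2 (0.38, 0.0801) did not pass. Pitx3 passed without DicerCN replicate 2 or 3 (limma adjusted p = 0.0439 and 0.0437), with array weights (0.0362) and with the genes of lowest signal left out (0.0497). Gata3 passed without DicerCN replicate 4 or 5 (limma adjusted p = 0.0410 and 0.0285), without control replicate 4 and DicerCN replicate 5 together (0.0423), after quantile normalization (0.0497), with array weights (0.0426) and with the retina (0.64, 0.0202) and pigment epithelium (0.83, 0.00710) covariates. Of the fits with arrays left out, Sox2 passed in those without control replicate 1 or DicerCN replicate 3 (limma adjusted p = 0.0433 and 0.0437).

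Of 17 other fibre cell genes, 6 fell and 1, Epha2, rose, with a median of −0.17. At an unadjusted p under 0.05 in limma 8 were lower and 1 higher. Over all genes 3.97% were called lower and 2.56% higher at an adjusted p under 0.05. Nrcam, an adhesion protein, fell by 0.69 (SE 0.10), Lctl by 0.60 (SE 0.11), Birc7, an inhibitor of apoptosis proteins, by 0.59 (SE 0.11) and Tdrd7, an RNA granule protein whose loss causes cataract, by 0.52 (SE 0.10). Their limma adjusted p were 0.00171, 0.00621, 0.00932 and 0.0112. With the macrophage covariate they stood at −0.53, −0.67, −0.55 and −0.62, with wider SEs of 0.14, 0.16, 0.17 and 0.15. None of these 4 passed in that fit (limma adjusted p = 0.103, 0.0783, 0.178 and 0.0847), which called 205 of all genes against 1303 without the covariate. Tdrd7 did not pass with the pigment epithelium covariate (−0.39, limma adjusted p = 0.140).

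Likeness of pattern to the mean of the 8 members was taken over the 10 pooled arrays after subtraction of the group means. The nearest genes were Timm17a (r = 0.95), Pigb (0.94), Pdia5 (0.94), Itprid2 (0.93) and Fam89a (0.93), taken among genes above the median level and outside the crystallins. None of these 5 passed the test between groups (limma adjusted p = 0.812, 0.860, 0.104, 0.697 and 0.742). Their differences between the groups were −0.080, 0.064, 0.22, 0.15 and −0.19, and their ranks come from 10 values each.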

How the data were processed

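Lens pairs of 5 control and 5 DicerCN embryos were each hybridised to 1 Affymetrix whole-transcript array, per the labels' protocols. The labels describe the samples as independent. The submitters' processing notes name GCOS. The deposited values, from 1.91 to 15.2, are taken as log2 signals scaled to one another by the authors (array medians 6.54 to 6.56). Log base, summarisation and array build are not given in the sources used here, so the base is read from the range. Arrays give no counts, and their number limits the precision.

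Of 35557 probe sets, 21789 had 1 symbol in the platform annotation, 1621 several and 12147 none. The first kind was used, 1 probe set per gene by highest mean, and 21698 matched RefSeq (GRCm38.p6) by gene ID with 0 symbols changed. The fit used limma 3.58.1 in R 4.3.3 (lmFit, eBayes, 2-sided), which was tested on simulated data. Ratios were tested by exact permutation over 252 partings. Alternatives were other scalings, probe set and signal filters, array weights, marker covariates, the replicate block and leaving out arrays. The pigment epithelium covariate and the joint removal of 2 arrays were chosen after seeing the data.

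The members and lists were chosen with earlier results of these data known. Genes named were the members, up to 4 per list by smallest p, fixed regulators, Hspb2 and the 5 genes of most similar pattern. Csf1r, Cx3cr1, Pdgfra and Epha2 are named after their values were seen. Near-identical gamma crystallins can share probes, which makes their separate values uncertain, as does the overlap of Cryba4 with Crybb1 and of Cryab with Hspb2.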

Additional observations from a re-analysis of the deposited data

How the results depend on the processing

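The number of genes that differed in limma was 1303, with 784 to 1295 when 1 array was left out (784 and 865 without control replicates 1 and 2), 205 with the macrophage covariate and 594 with the pigment epithelium covariate. The number of members that differed was 3, with 2 to 4 when 1 array was left out and 1 with the pigment epithelium covariate. Cryba2 kept its call under all 22 alternatives run, Crybb2 under 20 and Cryba4 under 12. Replicate numbers did not pair the arrays (residual correlations of −0.088 to 0.19, and 1 of 5 controls correlated best with its own number), and the fit with the replicate block called 1100 genes and 3 members; of the named genes refitted, Sox2 passed with it (0.38, limma adjusted p = 0.0334) and no other changed its call. The ratio of Cryba4 to Crybb1 shifted by −0.38 and passed after quantile normalization (exact permutation, adjusted p = 0.0238). With 1 array left out the ratio shifts ran from −0.33 to −0.19 for Cryaa to Cryab, from −0.40 to −0.27 for Cryba4 to Crybb1 and from −0.16 to −0.06 for Crybb2 to Crybb3. Differences that changed sign, none of them called in either fit, were those of Hsf4 (0.0034 with the retina and 0.088 with the pigment covariate), Maf (0.028), Prox1 (0.054) and Cryz (−0.069) with the pigment covariate, Cryz with arrays left out (−0.028 without control replicate 4 and DicerCN replicate 5, up to 0.14), Hspb2 with the macrophage covariate (−0.11) and with arrays left out (−0.017 without DicerCN replicate 3, up to 0.23), and Crybg1 over the mean of its probe sets (−0.068). The cause was not tested.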
